A study of Mus musculus with 24 samples.

Results

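*AY761185*, *LOC105247310*, *Apol8*, and *Cndp2* are 4 of the 23930 genes measured in monocytes of the mouse spleen, and they were chosen by their RPM values, as genes that earlier results of these data put highest in mice without both *Slc29a3* and *Tlr7*. They were found by name in the deposited table, and all 4 were present. Their differences between genotypes chose them and are given here as values, with no test. In Ly6C low monocytes, every library of the double knockout stood above all 8 other libraries for 3 of the 4 genes (*AY761185*, *LOC105247310*, and *Apol8*), a pattern that 0.640% of the 10317 genes kept in that subset showed. In Ly6C hi monocytes it held for 0 of the 4, against 1.58% of 10561 genes. It held for 4 of the 4 there without replicate 1 of the double knockout (3.58% of genes) and for 1, *Cndp2*, without replicate 2 of *Slc29a3*-/-. In that subset 1 library of the double knockout stood low, and *Slc29a3*-/- libraries were themselves above WT for 3 of the 4 genes. The description "raised only in the double knockout" was therefore met by the Ly6C low libraries, with *Cndp2* as the exception, and was not met library by library in Ly6C hi cells.

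The mice were untreated and of 3 genotypes: WT, *Slc29a3*-/-, and the double knockout *Slc29a3*-/- *Tlr7*-/-. Each genotype gave 4 libraries from Ly6C hi and 4 from Ly6C low cells, 24 in all. The labels call these CD11b+ cells negative for Ly6G, SiglecF, and NK1.1 macrophages, and the paper calls them monocytes. All mice were C57BL/6, but WT mice were bought, and both mutant lines were bred from mice edited with CRISPR/Cas9 in zygotes, with a stop codon inserted in *Slc29a3* and a short deletion in *Tlr7*. No group carried the *Tlr7* deletion alone, the ages were not given for these libraries, and it was not stated how many mice went into a library. If libraries were not from separate mice, the P values below measure technical spread only. Among Ly6C hi WT libraries, genes of NK cells summed to 413, 395, and 370 RPM in replicates 1 to 3 and to 104 RPM in replicate 4. Whether those 3 close libraries came from separate mice is not known. Each gene was read through 1 short PCR product, and its reads were scaled to 1000000 reads per library (RPM). The libraries held 12311069 to 14572317 reads, as inferred from the even steps between low values, so that 3 reads corresponded to 0.206 to 0.244 RPM. These limits cover counting error only and not differences in PCR yield.

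SLC29A3 is a nucleoside transporter of the lysosome, and TLR7 is a receptor in endosomes and lysosomes that senses single-stranded RNA and guanosine. Ly6C hi monocytes are the classical, inflammatory type, and Ly6C low monocytes patrol the vessel wall. *AY761185* encodes a member of the alpha-defensin family, small antimicrobial peptides that mouse Paneth cells secrete in the small intestine. *Apol8* belongs to the apolipoprotein L family, whose members bind lipids. *Cndp2* encodes a cytosolic dipeptidase that splits dipeptides such as cysteinylglycine, a product of glutathione breakdown. *LOC105247310* is annotated as a long noncoding RNA of no known function.

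The 4 genes lay on 4 different chromosomes. On GRCm38 (mm10), RefSeq placed *AY761185* (gene ID 100503970) at chr8:20943694-20944748 and *Apol8* (gene ID 239552) at chr15:77745109-77757062. Because these genes moved together most closely, the sequence before them is shown (250 and 198 bases that end where the gene begins), read 5′ to 3′ on the gene's strand from the RefSeq promoters of GRCm38.p6. Capitals mark the match described below.
AY761185, chr8:20944749-20944998, minus strand: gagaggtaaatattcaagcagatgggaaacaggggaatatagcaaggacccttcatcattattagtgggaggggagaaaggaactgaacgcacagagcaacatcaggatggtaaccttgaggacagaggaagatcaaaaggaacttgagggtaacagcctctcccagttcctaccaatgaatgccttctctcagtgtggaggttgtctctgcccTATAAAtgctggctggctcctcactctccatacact
Apol8, chr15:77757063-77757260, minus strand: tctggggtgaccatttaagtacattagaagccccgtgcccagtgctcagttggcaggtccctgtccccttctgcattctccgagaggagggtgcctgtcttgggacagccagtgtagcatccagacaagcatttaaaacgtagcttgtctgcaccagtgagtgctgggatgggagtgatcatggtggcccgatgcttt
The window of 300 bases around each promoter start (250 before and 50 after) was searched on both strands for an interferon response core (GAAA, any 2 bases, GAAA) and for an NF-κB site (GGGA, any base, TTTCC). For *Apol8* the 198 bases shown are fewer than 250, so the start of its window need not be where the gene begins. Neither motif matched in *AY761185* or *Apol8*, and 3.44% and 0.411% of 32851 promoters held them. The TATA box letters TATAAA, a motif chosen after the sequence was seen, matched in *AY761185* once and in *Apol8* not at all, against 13.6% of all promoters. The motifs did not overlap, and the absence of a match says only that these letters are not in the window. *LOC105247310* and *Cndp2* were not searched.

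*AY761185* was low in WT and high in the double knockout of both subsets. Its level in Ly6C low monocytes was 4.61, 4.32, 3.30, and 0.077 RPM in WT replicates 1 to 4. *Slc29a3*-/- libraries had 4.29, 3.76, 2.05, and 3.02 RPM. *Slc29a3*-/- *Tlr7*-/- libraries had 49.0, 17.2, 88.3, and 111 RPM. Every double-knockout library was above every other one, and the WT and *Slc29a3*-/- libraries overlapped. The means were 3.08 ± 2.08, 3.28 ± 0.972, and 66.3 ± 41.4 RPM (SD, n = 4 each). On the log2(RPM + 1) scale, the double knockout was 4.0 ± 0.56 above WT and 3.71 ± 0.56 above *Slc29a3*-/- (SE of the limma fit), the largest difference of all 10317 genes in both comparisons.

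Among Ly6C hi libraries, those of WT had 5.69, 5.34, 3.15, and 2.65 RPM of *AY761185*. *Slc29a3*-/- libraries had 8.20, 15.6, 20.3, and 14.7 RPM. *Slc29a3*-/- *Tlr7*-/- libraries had 7.39, 67.7, 54.3, and 111 RPM. Here the 4 *Slc29a3*-/- libraries were above all 4 WT libraries, and replicate 1 of the double knockout fell below all 4 *Slc29a3*-/- libraries while the other 3 stood above them. The double knockout was 3.11 ± 0.58 above WT and 1.53 ± 0.58 above *Slc29a3*-/- on the log2 scale, and *Slc29a3*-/- was 1.58 ± 0.58 above WT. Without replicate 1 the difference from WT was 3.90 and that from *Slc29a3*-/- was 2.32. In order of the means, Ly6C low and Ly6C hi double-knockout libraries came first (66.3 and 60.1 RPM), then Ly6C hi *Slc29a3*-/- (14.7 RPM), Ly6C hi WT (4.21 RPM), and Ly6C low *Slc29a3*-/- and WT (3.28 and 3.08 RPM). Of these neighbours in the order, the libraries of Ly6C hi *Slc29a3*-/- and Ly6C hi WT did not overlap, and those of the others did.

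**Figure D1:**
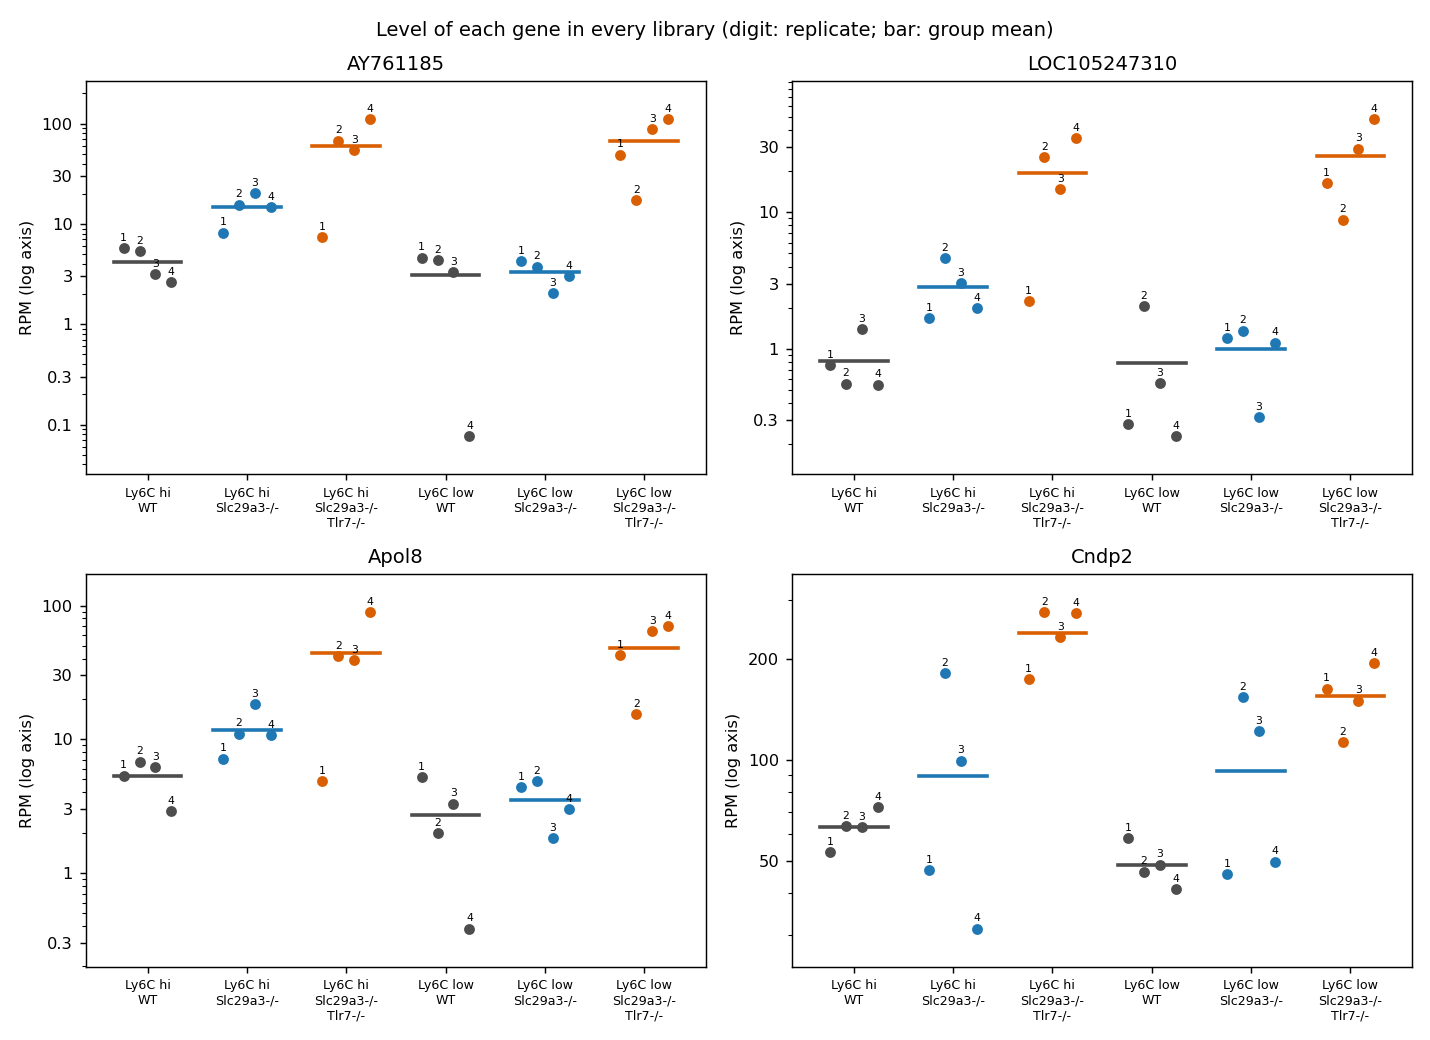
RPM (log axes) of the 4 genes in each library, with 6 groups of subset and genotype along the horizontal axis, a point and its replicate number for each library, and a bar for the mean of 4 libraries. *AY761185*, *LOC105247310*, and *Apol8* share the low replicate 1 among the Ly6C hi double-knockout libraries and the low replicate 2 among the Ly6C low ones. *Cndp2* has its lowest double-knockout levels in the same libraries (174 and 113 RPM) and differs by replicate within *Slc29a3*-/- in both subsets.

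*Apol8* showed nearly the same profile. The Ly6C low libraries of WT had 5.24, 1.99, 3.30, and 0.383 RPM and those of *Slc29a3*-/- 4.37, 4.88, 1.81, and 3.02 RPM. The double-knockout libraries had 42.5, 15.4, 64.2, and 70.6 RPM, all above the other 8. The difference from WT was 3.72 ± 0.49 and that from *Slc29a3*-/- was 3.30 ± 0.49 (log2). The Ly6C hi libraries of WT had 5.34, 6.80, 6.16, and 2.89 RPM and those of *Slc29a3*-/- 7.17, 11, 18.2, and 10.8 RPM. Those of the double knockout had 4.85, 41.7, 38.9, and 89.8 RPM, of which replicate 1 lay within the range of WT. The differences were 2.34 ± 0.60 from WT and 1.34 ± 0.60 from *Slc29a3*-/-, and 3.14 and 2.14 without that library. The means ran from 48.2 ± 25 RPM in Ly6C low and 43.8 ± 34.9 RPM in Ly6C hi double-knockout libraries through 11.8 ± 4.64 RPM in Ly6C hi *Slc29a3*-/- and 5.30 ± 1.71 RPM in Ly6C hi WT to 3.52 ± 1.38 and 2.73 ± 2.06 RPM in Ly6C low *Slc29a3*-/- and WT (SD, n = 4 each). Ly6C hi *Slc29a3*-/- and Ly6C hi WT were again the neighbours in this order whose libraries did not overlap.

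*LOC105247310* (gene ID 105247310), which RefSeq names *Gm45922* and places at chr6:50880887-50882620, was low outside the double knockout. In Ly6C low monocytes it was at 0.280, 2.06, 0.562, and 0.230 RPM in WT and at 1.19, 1.36, 0.315, and 1.11 RPM in *Slc29a3*-/-, which came from 3 to 30 and from 4 to 17 reads. Libraries of the double knockout had 16.4, 8.82, 29.2, and 48.1 RPM, or 111 to 602 reads, with no overlap. The difference was 3.76 ± 0.44 from WT and 3.53 ± 0.44 from *Slc29a3*-/- (log2). Its level in Ly6C hi monocytes was 0.763, 0.555, 1.40, and 0.546 RPM in WT and 1.67, 4.59, 3.01, and 1.99 RPM in *Slc29a3*-/-. Double-knockout libraries had 2.23, 25.3, 14.8, and 35 RPM. Replicate 1 lay within the *Slc29a3*-/- range, and the other 3 were above it. The differences were 3.05 ± 0.55 from WT and 2.02 ± 0.55 from *Slc29a3*-/-, or 3.79 and 2.75 without replicate 1. The group means were 25.6 and 19.3 RPM in the Ly6C low and Ly6C hi double knockout, 2.81 RPM in Ly6C hi *Slc29a3*-/-, and 0.783 to 0.995 RPM in the other 3 groups, which overlapped. The libraries of Ly6C hi *Slc29a3*-/- did not overlap those of Ly6C low *Slc29a3*-/-, the next in the order.

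*Cndp2* (gene ID 66054, chr18:84667465-84685702) was expressed in every library and had another profile. Its level in Ly6C low monocytes was 58.4, 46.4, 48.7, and 41.2 RPM in WT. *Slc29a3*-/- libraries had 45.7, 154, 122, and 49.7 RPM, so that replicates 1 and 4 lay within the WT range and replicates 2 and 3 above it. The 4 double-knockout libraries had 163, 113, 150, and 194 RPM, all above WT but not all above *Slc29a3*-/-. Among the Ly6C hi libraries, WT had 53.1, 63.6, 62.9, and 72.3 RPM. *Slc29a3*-/- libraries had 46.9, 181, 99.4, and 31.4 RPM, with replicates 2 and 3 high again and replicates 1 and 4 below all 4 WT libraries. The 4 double-knockout libraries had 174, 276, 232, and 274 RPM, of which replicate 1 was below the highest *Slc29a3*-/- library. The double knockout was 1.63 ± 0.33 above WT and 0.90 ± 0.33 above *Slc29a3*-/- in Ly6C low cells, and 1.89 ± 0.39 and 1.69 ± 0.39 above them in Ly6C hi cells (log2). The means were 239 ± 48.1 RPM (Ly6C hi double knockout), 155 ± 33.6 RPM (Ly6C low double knockout), 92.8 ± 53.8 and 89.6 ± 67.2 RPM (Ly6C low and Ly6C hi *Slc29a3*-/-), and 63.0 ± 7.86 and 48.7 ± 7.21 RPM (Ly6C hi and Ly6C low WT; SD, n = 4 each). Each of these groups overlapped the next.

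The step from WT to *Slc29a3*-/- differed among the 4 genes. In Ly6C hi monocytes, all 4 *Slc29a3*-/- libraries were above all 4 WT libraries for *AY761185*, *LOC105247310*, and *Apol8* (3 of 4 genes, against 11.9% of 10561 genes). Their log2 differences were 1.58 ± 0.58, 1.03 ± 0.55, and 1.00 ± 0.60, and that of *Cndp2* was 0.20 ± 0.39. In Ly6C low monocytes no gene separated from WT (6.66% of genes did), with 0.29 ± 0.56, 0.23 ± 0.44, and 0.42 ± 0.49 for the first 3 and 0.73 ± 0.33 for *Cndp2*. A list of 10 neutrophil genes holds *S100a8* and *S100a9*, which monocytes also express, so its sum does not measure neutrophils alone. Summed over this list, the Ly6C hi *Slc29a3*-/- libraries were at 73460 to 135703 RPM, against 23451 to 32557 RPM in WT and 12906 to 39342 RPM in the double knockout. The part of this difference in the members' values was not tested, and in sorted bulk samples fewer cells of a type and less RNA per cell cannot be told apart.

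The subsets were also compared within WT and within *Slc29a3*-/-. Low values in these libraries, above all in Ly6C low cells, were part of the choice of the genes, so the differences are not independent of it and are given as values. In WT, 0 of the 4 genes passed the limits of a call between Ly6C low and Ly6C hi monocytes by limma (0 of 4 at an unadjusted P under 0.05 also), and 25.9% of 11042 genes did. The log2 differences, Ly6C low minus Ly6C hi, were −0.55 ± 0.62 for *AY761185*, −0.11 ± 0.53 for *LOC105247310*, −0.91 ± 0.59 for *Apol8*, and −0.37 ± 0.39 for *Cndp2*. Within *Slc29a3*-/-, 2 of the 4 genes were past these limits toward lower values in Ly6C low monocytes, beside 16.5% of 11042 genes, and nothing is read from this count. *AY761185* differed by −1.84 ± 0.62, with all 4 Ly6C low libraries below all 4 Ly6C hi libraries, as for 3 of the 4 genes beside 21.4% of all. *Apol8* differed by −1.49 ± 0.59, also without overlap. *LOC105247310* did not overlap either, with a difference of −0.91 ± 0.53, and that of *Cndp2* was 0.17 ± 0.39. *AY761185* was no longer past the limits without replicate 3 of either group, and *Apol8* was not without any of replicates 2 to 4 of Ly6C hi or 1 to 4 of Ly6C low *Slc29a3*-/-. Neutrophil genes summed to 23.7 to 193 RPM in the Ly6C low and 73460 to 135703 RPM in the Ly6C hi libraries compared here, and genes of erythroid cells to 79.7 to 101 and 0.951 to 4.85 RPM. Their part was not tested.

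In the double knockout the order of the subsets was not the same, given here without a test because the high values there chose the genes. The log2 differences, Ly6C low minus Ly6C hi, were 0.34 ± 0.62 for *AY761185*, 0.60 ± 0.53 for *LOC105247310*, 0.47 ± 0.59 for *Apol8*, and −0.63 ± 0.39 for *Cndp2*. Without Ly6C hi replicate 1 they became −0.46, −0.13, −0.33, and −0.77, so the sign for the first 3 genes rested on that library. Replicate 1 also stood apart from the rest of its group in markers of other cells. Genes of NK cells summed to 624 RPM in it and to 5.28, 22.1, and 74.3 RPM in replicates 2 to 4 of the Ly6C hi double knockout, and genes of T cells to 25.9 RPM against 1.68 to 4.12 RPM. Ly6C hi WT libraries had 104 to 413 and 12.9 to 92.9 RPM of these, and *Slc29a3*-/- ones 17.5 to 35.1 and 1.74 to 7.83 RPM. The part of these cells in the low values of replicate 1 was not tested.

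*AY761185*, *Apol8*, and *LOC105247310* followed each other from library to library. Over the 24 libraries, Pearson's r of log2(RPM + 1) was 0.98 for *AY761185* with *Apol8*, 0.95 for *AY761185* with *LOC105247310*, and 0.93 for *Apol8* with *LOC105247310*. With the group means removed it was still 0.95, 0.85, and 0.81. *Cndp2* correlated with the 3 at 0.71 to 0.76, and at 0.30 to 0.36 with the group means removed, although its lowest double-knockout libraries were the same ones, at 174 RPM in Ly6C hi and 113 RPM in Ly6C low. These values describe 24 libraries that share genotypes and subsets. The ratio of the RPM of *AY761185* to that of *Apol8* varied from 1.12 to 1.56 among the 4 Ly6C low and from 1.24 to 1.62 among the 4 Ly6C hi double-knockout libraries, although the levels themselves varied from 17.2 to 111 and from 7.39 to 111 RPM. In Ly6C hi *Slc29a3*-/- libraries the ratio was 1.11 to 1.42, and in Ly6C hi WT libraries, with fewer reads, 0.511 to 1.06. PCR products differ in yield, so the ratio compares libraries and not amounts of the 2 transcripts.

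**Figure D2:**
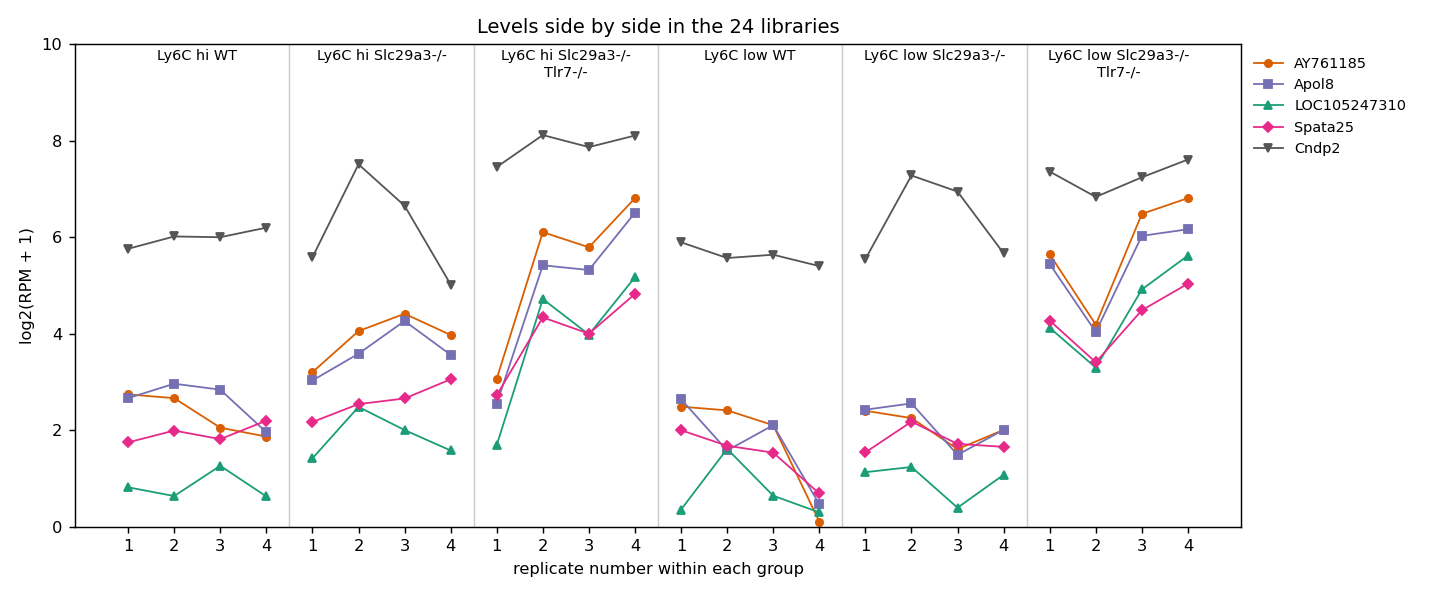
Level (log2(RPM + 1)) of *AY761185*, *Apol8*, *LOC105247310*, *Spata25*, and *Cndp2* in the 24 libraries, set side by side by group, where lines only join the points of 1 gene within a group and replicates have no order. The first 4 genes go up and down together among the double-knockout libraries, and *Cndp2* does so less (r with *AY761185* 0.72 over the 24 libraries and 0.30 with the group means removed).

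The gene outside the 4 whose level was most like that of *AY761185*, *Apol8*, and *LOC105247310*, among 8547 genes with a mean of at least 5 RPM, was *Spata25*, named for its expression in spermatogenesis (r = 0.97, 0.96, and 0.95 over 24 libraries). The Ly6C low level was 3.0, 2.20, 1.90, and 0.613 RPM in WT and 1.91, 3.52, 2.29, and 2.15 RPM in *Slc29a3*-/-. Libraries of the double knockout had 18.3, 9.61, 21.4, and 31.8 RPM, above all others and with the same replicate lowest. In Ly6C hi monocytes the double-knockout libraries had 5.62, 19.2, 15, and 27.3 RPM against 2.36 to 3.59 RPM in WT and 3.50 to 7.31 RPM in *Slc29a3*-/-, and replicate 1 was again the low one. Beyond *Spata25* the likeness dropped at this level of expression. The next were *Dr1*, which encodes a repressor of TBP-driven transcription (r = 0.79 with *AY761185* and 0.80 with *Apol8*), and *Ppp6r1*, a regulatory subunit of protein phosphatase 6 (r = 0.77 and 0.78). *Dr1* averaged 199 ± 19.6 RPM in Ly6C low WT and 273 ± 48.1 RPM in the Ly6C low double knockout, so its profile was alike in shape and far smaller in size. *LOC105247310* was next most like *Pex6*, a factor of peroxisome assembly (r = 0.81), and *Kri1* (r = 0.80).

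With lower levels admitted, 18 of the 11042 genes kept over all libraries reached r of at least 0.90 with *AY761185*, a limit set after the values were seen. They included *Apol8*, *LOC105247310*, and *Spata25*, and the other 15 averaged under 5 RPM. Of the 17 with a position, 9 were long noncoding RNAs and 8 were protein coding, and they lay on 9 chromosomes. Among the protein-coding ones were *Actrt3*, an actin-related protein of the testis (0.331 RPM in Ly6C low WT, 0.299 RPM in *Slc29a3*-/-, and 7.71 RPM in the double knockout), *Uroc1*, urocanate hydratase of histidine breakdown in the liver (0.365, 0.159, and 2.97 RPM), *Pou4f2*, a transcription factor of retinal ganglion cells (0.122, 0.179, and 2.47 RPM), and *Vstm2a* (0.0698, 0.278, and 3.17 RPM). All 18 had their highest mean of the 3 genotypes in the double knockout in both subsets, their lowest double-knockout library in replicate 1 of Ly6C hi, and in replicate 2 of Ly6C low. The choice by r and the filter of 1 RPM favour this, so nothing is read from it. Some passed the filter only through double-knockout libraries, such as *Gm11938* and *LOC108168871* (means elsewhere 0.0175 to 0.0993 and 0.0595 to 0.218 RPM). The same choice makes the sum of the 15 genes high in the double knockout, so it is given as values only. Summed over the 15 genes, the Ly6C low double-knockout libraries had 38.8, 12.5, 56.2, and 72.1 RPM, the Ly6C hi ones 4.85, 44.8, 34.8, and 87.8 RPM, and Ly6C low WT libraries 4.47, 3.91, 2.88, and 0.307 RPM. By comparison, 0 genes reached r of 0.90 with *Cndp2*.

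**Figure D3:**
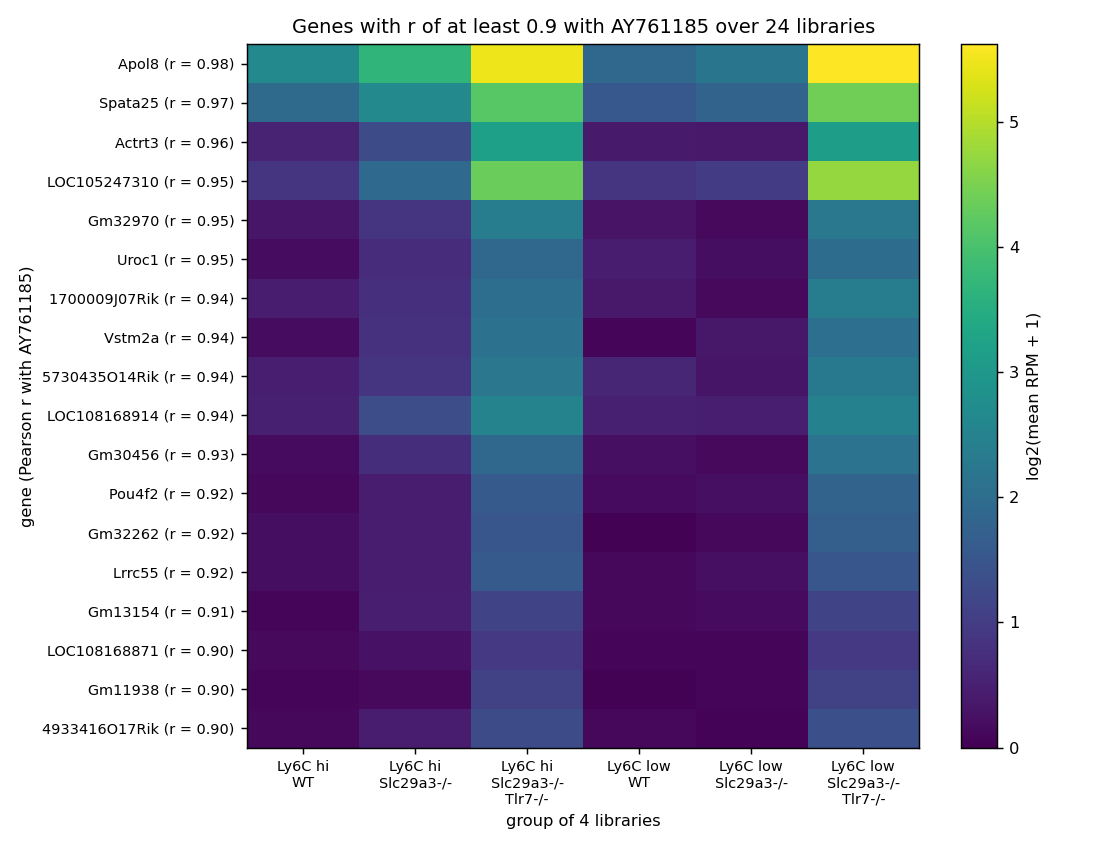
Mean level (log2(mean RPM + 1), color scale) in the 6 groups of 4 libraries (columns) of the 18 genes with r of at least 0.90 with *AY761185* (rows, with r). Each gene is brightest in the double-knockout columns of both subsets, and most are near 0 in WT, which the choice by r and the filter favour.

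*Cndp2* had other companions. Among its most alike genes with a mean of at least 5 RPM were *Fam114a2* (r = 0.81), *Pdia6*, a disulfide isomerase of the endoplasmic reticulum (r = 0.80), *Ctnna1*, alpha-catenin (r = 0.79), and *Creb1*, a cyclic AMP-responsive transcription factor (r = 0.78). *Pdia6* averaged 159 ± 35.2, 178 ± 33.5, and 278 ± 49.7 RPM in Ly6C hi WT, *Slc29a3*-/-, and double-knockout libraries, and 113 ± 42.8, 147 ± 42.1, and 202 ± 46.4 RPM in Ly6C low ones (SD, n = 4 each).

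The measured relatives of *AY761185* stayed under the 3-read limit. The table held 4 genes of the alpha-defensin family, and the other 3 (*Defa26*, *Defa-ps12*, and *Defa-ps13*) did not exceed 0.081 RPM in any library. Family members are close in sequence, so reads of *AY761185* could come from a relative without a product of its own. Of 6 other genes of Paneth cells, *Pla2g2a* was at 0 in all libraries, and *Mmp7*, *Ang4*, *Itln1*, and *Reg3g* did not exceed 0.641 RPM. *Lyz1*, a lysozyme that myeloid cells also express, passed the filter. It was higher in the double knockout than in *Slc29a3*-/- Ly6C hi monocytes (log2 difference 1.25, adjusted P = 0.00066 from limma) and lower in *Slc29a3*-/- than in WT in both (Ly6C hi −0.62, adjusted P = 0.032, and Ly6C low −1.54, adjusted P = 0.01), and against WT the double knockout passed in neither subset. The first of these calls of lower *Lyz1* was lost without Ly6C hi *Slc29a3*-/- replicate 3 or 4 or WT replicate 4. It was also lost with both other scalings of the libraries, with no filter, and with the replicate number as a block. *Lyz1* is close in sequence to *Lyz2*, so their reads may not be fully told apart.

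Among 10 apolipoprotein L genes, *Apol8* and *Apol7c* passed the filter, and the other 8 did not exceed 2.97 RPM. *Apol7c* had a different pattern. In Ly6C hi monocytes it was at 10.2, 12.6, 9.94, and 8.66 RPM in WT and at 1.59, 0.633, 0.159, and 2.14 RPM in *Slc29a3*-/-. The double-knockout libraries had 12.4, 8.12, 11.2, and 17.4 RPM, overlapping the WT libraries. It fell by 2.51 from WT to *Slc29a3*-/- on the log2 scale (adjusted P = 0.00015 from limma) and was 2.70 higher in the double knockout than in *Slc29a3*-/- (adjusted P = 0.0001). In Ly6C low monocytes it was at 10.2, 14.8, 10.2, and 55.6 RPM in WT, 3.97 to 7.26 RPM in *Slc29a3*-/-, and 21.0 to 34.8 RPM in the double knockout, with log2 differences of −1.70 from WT to *Slc29a3*-/- (adjusted P = 0.034, lost without *Slc29a3*-/- replicate 1, 2, or 4 or WT replicate 2) and 2.41 from *Slc29a3*-/- to the double knockout (adjusted P = 0.0065). Genes of conventional dendritic cells (6 genes, summed) moved with it, at 108 to 134, 24.1 to 65.3, and 113 to 136 RPM in Ly6C hi WT, *Slc29a3*-/-, and double-knockout libraries and at 39.1 to 73.2, 15.3 to 30.7, and 42.5 to 72.2 RPM in Ly6C low ones, and their part was not tested.

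**Figure D4:**
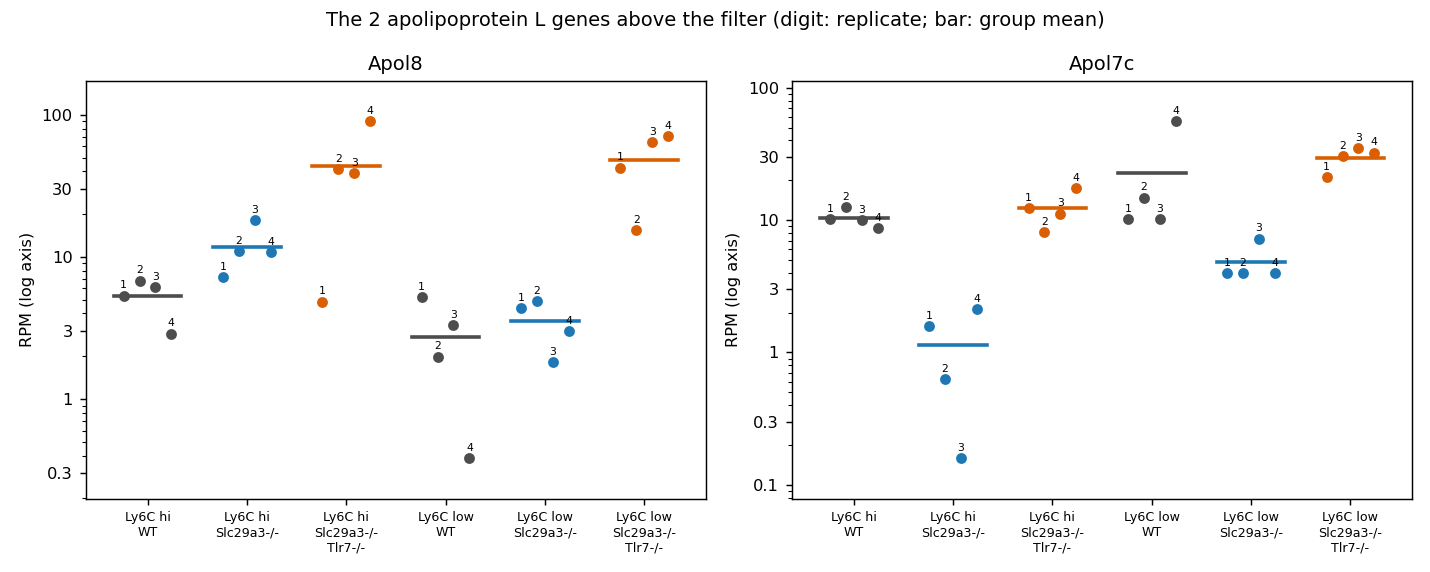
RPM (log axes) of *Apol8* and *Apol7c* in each library, by subset and genotype, with a bar for the mean of 4 libraries. *Apol8* is highest in the double knockout, whereas *Apol7c* is lowest in *Slc29a3*-/- and in the double knockout is at 8.12 to 17.4 RPM in Ly6C hi and 21.0 to 34.8 RPM in Ly6C low cells.

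Around *Cndp2*, 21 other genes of dipeptide and glutathione handling were in the table, of which 13 passed the filter in Ly6C hi cells and 11 in Ly6C low cells. The homologs *Cndp1*, *Pm20d1*, and *Pm20d2* did not exceed 0.720 RPM. Against WT, the double knockout had 0 of 13 called genes in Ly6C hi cells by limma (background 1.42%). At an unadjusted P it also had 0 there, beside 1326 of all 10561 genes. In Ly6C low cells 1 was higher and 2 lower of 11 (background 8.31% in both directions). *Anpep*, an aminopeptidase of the cell surface, rose (log2 difference 0.99, adjusted P = 0.028, lost without WT replicate 1, 2, or 3), and the membrane dipeptidases *Dpep2* (−1.13, adjusted P = 0.0016) and *Dpep3* (−2.03, adjusted P = 0.0016) fell. Both dipeptidases were also lower in Ly6C low *Slc29a3*-/- than in WT (−1.61, adjusted P = 1.7e-05, and −2.35, adjusted P = 7.9e-05), 2 of 11 genes against 4.43% of all. *Dpep2* was at 441 to 627 RPM in Ly6C low WT, 160 to 174 RPM in *Slc29a3*-/-, and 206 to 247 RPM in the double knockout. Against *Slc29a3*-/-, 0 of 11 genes were called in the Ly6C low double knockout (background 1.93%), and 0 at an unadjusted P, beside 1414 of all 10317 genes. In Ly6C hi cells 3 of 13 genes (*Pepd*, *Anpep*, and *Dpep2*) were higher and 2 (*Chac1* and *Gclm*) lower in the double knockout (background 17.2% in both directions). Of these 5 calls, that of *Chac1*, a glutathione-cleaving enzyme (−1.90, adjusted P = 0.006), held with every library left out, and each of the others was lost without at least 1 library. The call of *Pepd* was also lost with both other scalings of the libraries, and that of *Dpep2* with 1 of them. Between *Slc29a3*-/- and WT Ly6C hi cells, 2 of 13 were higher and 5 lower (background 22.4%). The median log2 difference of the list from WT was −0.26 in Ly6C hi and −0.23 in Ly6C low cells, against −0.06 and −0.10 for all genes, beside 1.89 and 1.63 for *Cndp2* itself.

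The genes next to the 4 on their chromosomes are given for comparison. Of the 40 nearest measured genes, 5 on each side, 38 passed the filter in Ly6C hi cells and 37 in Ly6C low cells. Between the double knockout and WT, 0 of 38 were called in Ly6C hi cells by limma (background 1.42%). At an unadjusted P, 4 of the 38 passed there, beside 1326 of all 10561 genes. In Ly6C low cells 2 rose and 1 fell of 37 (background 8.31% in both directions), a share near that of all genes. The 2 were *Myh9*, nonmuscle myosin, 3.52 kb beyond *Apol8* (0.64, adjusted P = 0.016), and *Skap2*, an adaptor protein, 977 kb from *LOC105247310* (0.74, adjusted P = 0.016), and the 1 was *Eif3d* near *Apol8* (−0.89, adjusted P = 0.049). Each of the 3 calls was lost without WT replicate 2 and also without WT replicate 3, that of *Myh9* also without double-knockout replicate 4, and that of *Eif3d* without WT replicate 1 or double-knockout replicate 3 or 4. The call of *Eif3d* was also lost with both other scalings and both other filters. The neighbours ranged from −1.11 to 0.78 in Ly6C hi and from −1.37 to 0.83 in Ly6C low cells. The 4 genes lay above these ranges, which follows from their choice by large differences. Against *Slc29a3*-/- in Ly6C hi cells, the neighbour *Apol7c* differed by 2.70, more than any of the 4 genes (1.34 to 2.02). The nearest measured neighbour of *AY761185* was 1116 kb away. Between the double knockout and *Slc29a3*-/-, 1 neighbour rose in each subset, in both cases *Apol7c*, 212 kb from *Apol8*, and *Ckap2* and *Fam221a* were lower in Ly6C hi cells (3 of 38 called in Ly6C hi and 1 of 37 in Ly6C low cells, background 17.2% and 1.93% in both directions), *Fam221a* not without double-knockout replicate 2 or *Slc29a3*-/- replicate 1, 3, or 4.

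**Figure D5:**
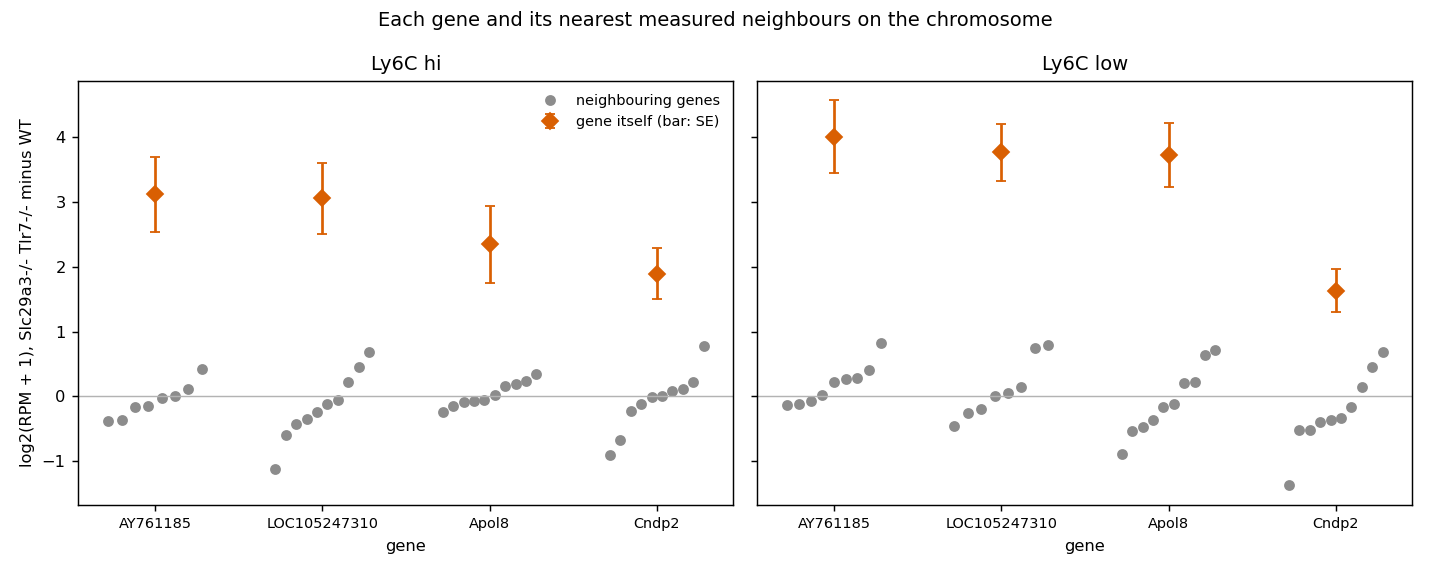
Difference between the double knockout and WT (log2(RPM + 1)) of each of the 4 genes, with its SE, and of its nearest measured neighbours on the chromosome, in Ly6C hi and Ly6C low monocytes, with the neighbours in order of value. The neighbours lie between −1.37 and 0.83, and the 4 genes, which were chosen by their differences, between 1.63 and 4.0.

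The sorted subsets differed in their defining genes. Summed over 5 genes of Ly6C hi monocytes, the Ly6C hi libraries were at 2553 to 7150 RPM and the Ly6C low ones at 76.7 to 372 RPM, and 8 genes of Ly6C low monocytes gave 1430 to 4165 and 8947 to 18375 RPM. *Ly6c2* itself had no product in the table. The product of *Slc29a3* was at 127 to 173 RPM in Ly6C hi *Slc29a3*-/- and 163 to 225 RPM in WT, and *Tlr7* at 259 to 345 RPM in the Ly6C hi double knockout and 210 to 336 RPM in WT, so the level of neither product checks the genotype. Genes of B cells, T cells, and erythroid cells summed to at most 57.8, 92.9, and 101 RPM, those of NK cells to at most 624 RPM, those of plasmacytoid dendritic cells to at most 315 RPM, and those of eosinophils to at most 457 RPM. Red pulp macrophage and plasma cell lists, which hold genes that monocytes also use (*Adgre1* and *Xbp1*), reached 1600 and 1204 RPM. The red pulp macrophage sum was 383, 539, 494, and 1174 RPM in the Ly6C hi and 517, 620, 821, and 1600 RPM in the Ly6C low double-knockout libraries, highest in replicate 4 of both, where *AY761185*, *Apol8*, and *LOC105247310* were highest too. With the group means removed, r of this sum over 24 libraries was 0.49 with *AY761185*, 0.49 with *Apol8*, 0.65 with *LOC105247310*, and 0.32 with *Cndp2*, and its part in their values was not tested. None of these marker genes was at 0 in all 24 libraries.

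Sex and barcode differed between libraries and touch the values above. Taken at 10 RPM or more, *Xist* without Y-linked genes marked WT replicates 1 to 3, *Slc29a3*-/- replicates 2 to 4, and double-knockout replicate 4 of both subsets, and both kinds of transcript were present in double-knockout replicates 2 and 3 of Ly6C hi and 2 of Ly6C low. Among the libraries with *Xist* only, *AY761185* was at 3.30 to 4.61 RPM in WT, 2.05 to 3.76 RPM in *Slc29a3*-/-, and 111 RPM in the double knockout in Ly6C low cells, and at 3.15 to 5.69, 14.7 to 20.3, and 111 RPM in Ly6C hi cells. Among those with Y-linked genes only, it was at 0.077, 4.29, and 49.0 to 88.3 RPM in Ly6C low cells. In Ly6C hi cells the libraries of that kind were WT replicate 4, *Slc29a3*-/- replicate 1, and double-knockout replicate 1, at 2.65, 8.20, and 7.39 RPM. In the same 3 libraries *Apol8* was at 2.89, 7.17, and 4.85 RPM, *LOC105247310* at 0.546, 1.67, and 2.23 RPM, and *Cndp2* at 72.3, 46.9, and 174 RPM, so *Cndp2* alone of the 4 was far above both in the double knockout there. WT replicates 1 to 3 carried barcodes 11 to 16, and WT replicate 4 carried 29 in Ly6C hi and 35 in Ly6C low. *Slc29a3*-/- libraries carried 24 to 27 and 30 to 33. The double knockout alone carried 37 to 40 and 43 to 46, so its genotype cannot be told apart from its barcode range. No WT library, replicate 4 included, lay in that range. WT replicate 4 had the lowest *AY761185* and *Apol8* of each subset, and *AY761185* in its Ly6C low library rested on 1 read, below the 3-read limit of 0.230 RPM. Relative to that replicate alone, *AY761185*, *LOC105247310*, *Apol8*, and *Cndp2* were 3.57, 3.26, 2.99, and 1.69 higher in the double knockout in Ly6C hi cells and 5.67, 4.19, 4.95, and 1.86 higher in Ly6C low cells (log2).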

How the data were processed

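The authors deposited reads per 1000000 (RPM) of 23930 PCR products (Ion AmpliSeq). The methods name the AmpliSeqRNA plug-in, Cutadapt, STAR on mm10, HTSeq, and DESeq2, and the step that wrote the table is not stated. A value of 0.0001 was read as 0, and 27 names turned into dates were repaired. Members, lists, and tests were chosen with earlier results of these data known. Genes with at least 1 RPM in 4 of the 12 libraries of a subset (genotypes) or 4 of 24 (subsets) were kept, and all 4 members passed in both subsets. Their log2(RPM + 1), which understates changes of low genes, was fitted with limma 3.58.1 in R 4.3.3 (3 genotypes per subset, or all 6 groups, with an intensity trend). A call needed a fold over 1.5 and a Benjamini-Hochberg adjusted P under 0.05. Named were the members, the 5 genes most alike to each (Pearson's r, mean of at least 5 RPM), 5 neighbours on each side, and genes of the family lists, of which 1 is not reported here. Others with r of at least 0.90 were added after their values were seen. Alternatives were other scalings, filters, a pseudocount, samples, a replicate block, and each library left out. Replicate numbers were not used as pairs in the main fit, and whether they pair the subsets was not settled (correlations of deviations in WT 0.259 to 0.619). The fit was tested on simulated data. Plots used Python 3.11.15 and matplotlib 3.10.9.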

Additional observations from a re-analysis of the deposited data

How the results depend on the processing

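The members' differences between genotypes and, in the double knockout, between subsets stayed within 1 SD of the value given under 343 of 352 alternatives (not always with the same sign). The exceptions were, relative to WT replicate 4 alone, *AY761185* and *Apol8* in the Ly6C low double knockout (5.67 and 4.95), *Apol8* in Ly6C hi *Slc29a3*-/- (1.65), and *AY761185* and *Apol8* in Ly6C low *Slc29a3*-/- (1.96 and 1.65). With a pseudocount of 0.1, *LOC105247310* was 5.04 above WT and 4.43 above *Slc29a3*-/- in the Ly6C low double knockout, and 1.66 above WT in Ly6C hi *Slc29a3*-/-. Signs turned when 1 library was left out. Without Ly6C hi double-knockout replicate 1, the subset differences in the double knockout turned to −0.46 (*AY761185*), −0.33 (*Apol8*), and −0.13 (*LOC105247310*, up to 1.02 without others). Between *Slc29a3*-/- and WT, *Cndp2* in Ly6C hi cells turned from 0.20 to −0.24 without *Slc29a3*-/- replicate 2 (and to −0.01 against WT replicate 4 alone), and *AY761185* in Ly6C low cells from 0.29 to −0.27 without WT replicate 4. Between subsets, *LOC105247310* in WT turned to 0.02 to 0.03 without Ly6C hi replicate 3 or Ly6C low replicate 1 or 4, and *Cndp2* in *Slc29a3*-/- to −0.22 to −0.03 without Ly6C hi replicate 1 or 4 or Ly6C low replicate 2 or 3. The number of members with every double-knockout library above all others ranged from 0 to 4 in Ly6C hi with 1 library left out and was 3 throughout in Ly6C low.

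Of the subset differences of members in WT and *Slc29a3*-/-, 116 of 130 kept their side of the limits of a call. In *Slc29a3*-/-, *AY761185* (−1.84) fell short of them with no filter and ranged from −2.08 to −1.67 with 1 library left out. *Apol8* (−1.49) did so with no filter, with no intensity trend, and with a pseudocount of 0.1 (−1.73), and ranged from −1.68 to −1.27. *LOC105247310* (−0.91) passed them with only the groups compared in the fit. Of the calls of other named genes, 360 of 440 alternatives kept them and none turned the sign. The cause of each loss was not tested.

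The counts of all genes called varied more, and 89 of 141 stayed within 1.5 times. Between the double knockout and WT in Ly6C hi, 150 genes became 64 with no filter, 34 with a mean of at least 10 RPM, 44 with a pseudocount of 0.1, 3 with only the groups compared, 71 with no trend, 0 against WT replicate 4 alone, and 1326 without P adjustment. They ranged from 1 (without double-knockout replicate 2) to 1048 (without WT replicate 4) with 1 library left out. In Ly6C low, 857 became 496 with no filter, 63 with only the groups compared, 0 against WT replicate 4 alone, and 2135 unadjusted, with a range of 119 to 1787. Between the double knockout and *Slc29a3*-/-, 1819 in Ly6C hi ranged from 1134 to 1987, and 199 in Ly6C low became 74 at a mean of at least 10 RPM and 1414 unadjusted, with a range of 107 to 441. Between *Slc29a3*-/- and WT, 2368 in Ly6C hi became 1577 at a mean of at least 10 RPM and 156 against WT replicate 4 alone. In Ly6C low, 457 became 289 at a mean of at least 10 RPM, 855 with only the groups compared, 35 against WT replicate 4 alone, and 1361 unadjusted, with a range of 202 to 1406. Between subsets, 2863 in WT became 1864 at a mean of at least 10 RPM and 639 with WT replicate 4 alone, and 3869 in *Slc29a3*-/- became 2569 at that mean.

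WT replicate 4 differed in sex and barcode, so the WT correlations of deviations do not settle whether subsets were paired. The others were −0.081 to 0.255 (*Slc29a3*-/-), −0.456 to 0.338 (double knockout), and −0.187 to 0.153 (genotypes of a subset). With the replicate number as a block, 2898 genes differed between the subsets of WT and 3891 between those of *Slc29a3*-/-. With that block, 43 genes differed between the double knockout and WT in Ly6C hi and 627 in Ly6C low, and no call of a member changed. The median of all genes was −0.14 between *Slc29a3*-/- and WT and 0.12 between the double knockout and *Slc29a3*-/- in Ly6C hi (log2), and no member changed sign by scaling. A count test was not run here, although low values were whole reads in every library. WT replicate 4, the lone WT library among the later barcodes, is assumed to vary like the other groups where it stands alone. *LOC105247310* outside the double knockout rests on 3 to 58 reads.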

Other observations

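Genes that monocytes are not known to use also summed higher in Ly6C hi double-knockout libraries than in all others of that subset. In Ly6C low cells the ranges overlapped. This set was looked at after the members' values were seen. The 1057 olfactory receptor products summed to 65.9 to 98.3 RPM in Ly6C hi WT, 43.2 to 80.8 RPM in *Slc29a3*-/-, and 116 to 193 RPM in the double knockout. The Ly6C low libraries had 58.1 to 135, 73.8 to 154, and 143 to 348 RPM. The 234 vomeronasal receptor products summed to 9.36 to 12.9, 4.28 to 9.60, and 13.5 to 22.8 RPM in Ly6C hi and to 5.63 to 20.5, 8.41 to 9.48, and 17.8 to 42.3 RPM in Ly6C low libraries. Among the Ly6C low double-knockout libraries, replicate 2 had the highest olfactory receptor sum and the lowest *AY761185*, so the sums did not follow *AY761185* from library to library (r = 0.44 over 24 libraries and −0.27 with the group means removed). These sums were not tested.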
